A study of Rattus norvegicus with 6 samples.

Results

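Rab proteins are small GTPases of the Ras superfamily, and 56 genes named for them were measured on 6 arrays of whole rat heart, among 26316 genes or transcripts in all. They were taken as the non-control probes whose gene name on the array is Rab followed by a number and at most a letter and a digit, which gave 72 probes. A gene with several probes was represented by its brightest, and its other probes served as a check. A Rab switches between a GTP-bound form, which sits on a membrane and recruits effector proteins, and a GDP-bound form, which is held in the cytosol by GDP dissociation inhibitors (GDIs). Exchange factors (GEFs) load GTP, GTPase-activating proteins (GAPs) end the active state, and each Rab marks particular membranes of the cell, from the endoplasmic reticulum (ER) and Golgi to endosomes, lysosomes and secretory vesicles. In heart muscle this traffic is known to carry receptors, channels and glucose transporters to and from the cell surface.

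The study compared 3 whole heart samples from animals given AACO, a formula of Chinese medicine (its letters are not spelled out), with 3 from controls given double-distilled water. Per the labels, AACO was given once a day at 0.386 µg/g, the labels not naming of what, for 8 weeks, and tissue was taken 24 h after the last dose. The series text says that all animals had TAC, by its usual meaning the narrowing of the aorta called transverse aortic constriction, so both groups carried it, and no group without it is among these arrays. The same text calls the animals mice, whereas the sample labels give rat and the probes lie on the rat genome build rn4. The labels give no strain or age. Different donors per experiment are mentioned, but the labels do not tie an array to an animal, and the p-values then rest on the spread among 6 samples, which may be technical. All values are log2 of the array signal relative to the array's 75th percentile, and a difference is AACO minus control with its standard error (SE) from limma.

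The arrays of each group shared a slide and a scan day, so slide, scan day and treatment cannot be told apart. The share of spots well above background was 70.9% to 72.4% with AACO and 66.0% to 68.7% in controls. Ventricular myocyte genes, which mark the labelled tissue, were present on every array, with 9 of 9 markers measured and summed levels of 1059 to 1227 with AACO and 928 to 1298 in controls, relative to the 75th percentile at 1. Of 12 macrophage markers, 9 fell and 0 rose, with sums of 14.9 to 16.1 with AACO and 24.9 to 37.2 in controls. Sums were also lower on every AACO array for neutrophil markers (3 of 8 measured, 1 fell), platelet markers (4 of 6, 1 fell), adipocyte markers (3 of 7, 1 fell) and endothelial markers (8 of 8, 0 fell), the last at 20.9 to 22.8 against 24.1 to 26.2. Single markers of these lists went the other way: 1 platelet, 1 adipocyte (by 1.17) and 1 endothelial marker were higher with AACO, and 0 neutrophil markers. Of 8 smooth muscle and pericyte markers 7 were higher and 0 called, with overlapping sums. The part of these cell types in the values of the Rab genes was not tested. In whole tissue, fewer cells of a type and less RNA per cell cannot be told apart. The atrial genes Myl7 and Sln were high on AACO replicates 1 and 2 and not on AACO replicate 3. The other measured atrial markers, 4 of 6, were lower with AACO. Of the 6, 0 were called, and the summed atrial levels overlapped between the groups.

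Of the 56 Rab genes, 51 were tested, having a probe well above background on 3 or more arrays, 46 of them with a probe above background on all 6. Rab17, Rab25, Rab3c and Rab39a were not well above background on any array, and Rab38 was so on 1 AACO array only, which leaves these 5 genes without a test. Rose and fell are used for a limma adjusted p under 0.05, with Benjamini-Hochberg adjustment over all 17536 genes tested. By that measure 4 Rab genes differed. Rab20, Rab9b and Rab3a rose and Rab30 fell, which is 3 genes against a background of 6.32% of all genes rising and 1 against 4.94% falling (11.3% in either direction). The Rab9b probe passed the filter through the AACO arrays alone, the group where it is high, so its rise adds no support to that count. Where a probe above background on all 6 arrays was required, Rab9b was not tested and 2 Rab genes rose. For 18 Rab genes (35.3%) no AACO value overlapped with a control value, 11 higher and 7 lower with AACO, against 37.4% of all genes. An unadjusted p under 0.05 was reached by 13 (25.5%), against 30.8% of all genes. None of these shares of Rab genes was above the background.

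Differences within the family were small for most members. With AACO 25 of the 51 were higher and 26 lower, with a median difference of -0.01 beside 0.04 over all genes. Leaving out 1 array moved that median between -0.06 without control replicate 1 and 0.03 without control replicate 2. For 41 of 51 (80.4%) the difference was under 0.5 in size on the log2 scale, against 76.9% of all genes. For 5 it was at least 1, which is 9.80% against 6.40% of all genes. Of these 5, Rab9b, Rab36 and Rab15 were well above background on at most 1 control array, so their sizes are not exact. With normexp, another background correction, Rab9b differed by -0.08, Rab36 by 0.03 and Rab27b by 0.24. Rab30 lay at -1.55 or lower in every alternative setting. The split into higher and lower depended on the scaling. Without any scaling between arrays the median of all genes was 0.52 and that of the Rab genes 0.47. In that setting 49 of the 51 Rab genes were higher.

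**Figure D1:**
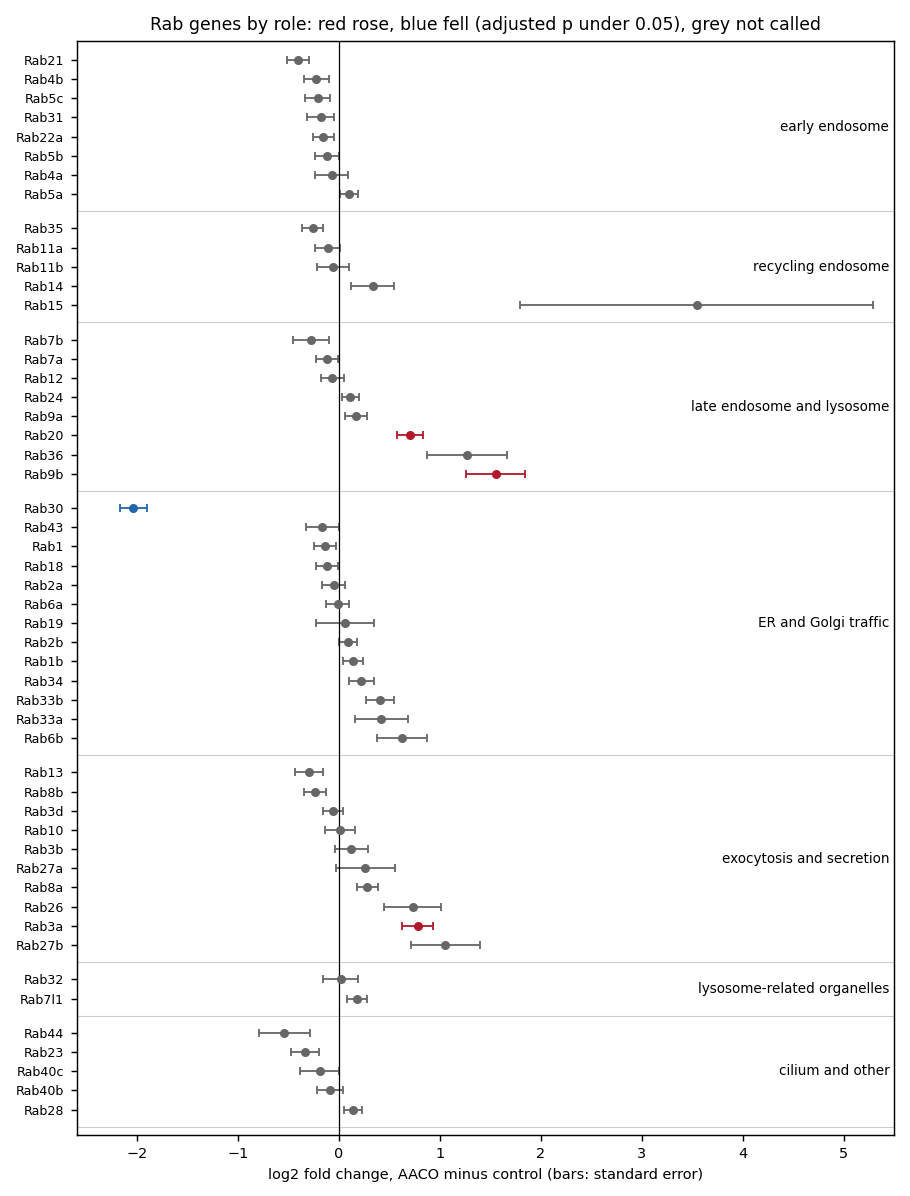
Log2 fold change of each of the 51 tested Rab genes (AACO minus control, horizontal axis; bars are the standard error, 3 arrays per group), ordered within 7 role lists. Red genes rose and blue fell at an adjusted p under 0.05; Rab30 stands at -2.04 and Rab15 at 3.54 with the widest bar, while 41 of the 51 lie within 0.5 of 0.

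The promoters of the 4 genes that differed are shown because they are the regulatory sequence next to the change in RNA. RefSeq (assembly GRCr8) held 47 promoters for 46 of the 56 Rab genes, Rab30 having 2. The 250 bases before the start are printed 5′ to 3′ on the gene's strand, with matches on either strand to CACGTG (E-box), TGACGTCA (CRE), TGACNNNGC (antioxidant response element core), GGGCGG (GC box), CCAAT and TATAAA in capitals.
Rab30 (chr1:156215887-156216136, plus strand): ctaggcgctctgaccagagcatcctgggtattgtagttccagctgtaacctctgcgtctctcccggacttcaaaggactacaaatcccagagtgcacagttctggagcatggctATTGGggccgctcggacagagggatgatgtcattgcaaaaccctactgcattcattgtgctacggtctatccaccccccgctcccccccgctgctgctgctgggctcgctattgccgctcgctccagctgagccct
Rab30 (chr1:156288711-156288960, plus strand): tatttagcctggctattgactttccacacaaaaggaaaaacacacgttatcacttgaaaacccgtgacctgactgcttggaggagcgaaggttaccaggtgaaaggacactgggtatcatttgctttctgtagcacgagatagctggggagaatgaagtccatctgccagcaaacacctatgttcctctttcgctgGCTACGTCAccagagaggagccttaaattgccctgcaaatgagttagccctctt
Rab20 (chr16:84721177-84721426, plus strand): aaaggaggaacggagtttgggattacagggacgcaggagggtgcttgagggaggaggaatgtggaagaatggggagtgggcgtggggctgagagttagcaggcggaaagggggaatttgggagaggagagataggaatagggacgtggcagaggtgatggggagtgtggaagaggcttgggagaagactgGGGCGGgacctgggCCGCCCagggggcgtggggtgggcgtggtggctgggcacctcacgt
Rab9b (chrX:105023873-105024122, minus strand): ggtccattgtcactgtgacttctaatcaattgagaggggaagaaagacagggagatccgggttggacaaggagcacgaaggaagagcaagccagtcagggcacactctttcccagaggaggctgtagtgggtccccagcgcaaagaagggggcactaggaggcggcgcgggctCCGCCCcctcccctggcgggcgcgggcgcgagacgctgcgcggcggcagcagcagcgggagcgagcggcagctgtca
Rab3a (chr16:18722274-18722523, minus strand): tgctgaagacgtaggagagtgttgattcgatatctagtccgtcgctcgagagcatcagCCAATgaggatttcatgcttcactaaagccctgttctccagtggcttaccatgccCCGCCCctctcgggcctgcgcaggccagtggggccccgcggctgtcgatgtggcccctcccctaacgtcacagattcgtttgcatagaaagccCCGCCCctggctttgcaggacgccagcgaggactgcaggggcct
The promoters of Rab20, Rab9b and Rab3a each held at least 1 GC box, and neither Rab30 promoter held one. With only 4 genes, a link between a GC box and the direction of change was not tested. Rab30 had a CCAAT in one promoter and a TGACNNNGC match in the other, and Rab3a a CCAAT beside 2 GC boxes. A GC box stood in 35 of the 47 Rab promoters (74.5%), against 30.5% of all 33469 promoters of the same length. TATAAA stood in 0 of 47 against 12.9%, CCAAT in 31.9% against 34.0%, CACGTG in 6.38% against 5.59%, TGACNNNGC in 14.9% against 10.1% and TGACGTCA in 2.13% against 1.59%. The Rab promoters had a median of 17 CpG dinucleotides against 5, and a median GC content of 62.4% against 51.2%, and a GC box is itself made of G and C. These are matches of letters in a window and not sites of binding.

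Rab GTPases of the ER and Golgi carry newly made proteins through the early secretory pathway. Of the 13 tested, 0 rose and 1 fell (all genes: 6.32% and 4.94%), with 7 higher, 6 lower and a median of 0.06. The median had no stable sign: it was -0.10 without control replicate 3, -0.02 without AACO replicate 1, -0.04 with normexp and -0.07, with 4 higher and 9 lower, with the level of Myl7 and Sln as a covariate. Rab30, a Golgi Rab known for keeping the structure of that organelle, was the gene that fell, measured by a probe at chr1:149669452-149669511 of rn4. Its signal was -3.29, -3.18 and -3.20 on AACO replicates 1 to 3 and -1.01, -1.44 and -1.12 on the controls. All AACO arrays lay below all controls, with an SD of 0.06 among the AACO arrays and 0.22 among the controls. The difference was -2.04 ± 0.13 (SE, n = 3 per group, limma adjusted p = 0.0056), or 4.10-fold lower with AACO. Rab30 fell in 17 of 19 alternative settings, among them all 6 that left out an array, with differences of -2.16 to -1.55. It was not called with the Myl7 and Sln covariate (-2.03, adjusted p = 0.135) nor with AACO replicate 3 as the lone AACO array (-2.01, adjusted p = 0.231). Both of these settings called 0 of all 17536 genes, so the lost call tells nothing of Rab30 in particular.

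Of the other Golgi members, Rab33b, which binds the autophagy protein Atg16l1, gave -0.63, -0.68 and -1.04 with AACO and -1.23, -1.23 and -1.11 in controls. All AACO arrays lay above the controls, AACO replicate 3 the nearest to them. The difference of 0.41 ± 0.14 did not pass the threshold (limma adjusted p = 0.102), but did without AACO replicate 3 (0.53, adjusted p = 0.0355). Rab6b, a form of the Golgi Rab6 known from neurons, gave -1.01, -0.98 and -1.77 with AACO and -1.61, -2.07 and -1.97 in controls. Here AACO replicate 3 lay among the controls, and the difference was 0.63 ± 0.25 (adjusted p = 0.146), or 0.89 without that array (adjusted p = 0.0347). The second probe of each gene differed the opposite way, by -0.18 for Rab33b and -0.15 for Rab6b. The other 10 members lay between -0.17 for Rab43 and 0.42 for Rab33a and none passed the threshold. Among them Rab1b and Rab1, which act between ER and Golgi, differed by 0.14 ± 0.10 and -0.14 ± 0.11.

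Rabs of late endosomes and lysosomes direct cargo to degradation or back to the Golgi. Of 8 tested, 2 rose and 0 fell (all genes: 6.32% and 4.94%), with 5 higher, 3 lower and a median of 0.14. Among these rises is that of Rab9b, which passed the filter on its AACO arrays alone. Over the 6 members above background on all arrays, which leaves out Rab9b and Rab36, 3 were higher and 3 lower with a median of 0.02. Rab20, known from phagosome maturation in macrophages and as a gene induced by low oxygen, gave 1.68, 2.05 and 1.77 with AACO and 1.03, 1.24 and 1.12 in controls at a probe at chr16:82894965-82895024 of rn4. Every AACO array lay above every control, and the difference was 0.70 ± 0.13 (limma adjusted p = 0.0252), or 1.63-fold higher. A second Rab20 probe at chr16:82894490-82894549 gave -0.07, 0.13 and -0.08 with AACO and -0.64, -0.77 and -0.75 in controls, a difference of 0.71 again without overlap. The call on Rab20 was lost on leaving out AACO replicate 1 (0.78, adjusted p = 0.0588), AACO replicate 2 (0.60, adjusted p = 0.0814), control replicate 1 (0.65, adjusted p = 0.0555) or control replicate 3 (0.70, adjusted p = 0.0760). Over the same arrays 10 of 12 macrophage markers were lower on every AACO array than on every control. The other markers, Aif1 (-0.07) and Csf1r (0.04), overlapped between the groups. The part of macrophages in the value of Rab20 was not tested.

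Rab9b, a relative of the endosome-to-Golgi Rab9a, rested on a dim probe at chrX:124526177-124526236 of rn4. It gave -5.73, -5.71 and -6.17 with AACO and -8.03, -7.25 and -6.97 in controls, where none of the 3 arrays was well above background. The difference was 1.55 ± 0.29 (limma adjusted p = 0.0265), but the control level is only a bound. In the main setting, and not under every background correction, this gives at least 2.05-fold more with AACO. That bound sets the mean of the AACO arrays against a control mean in which each array counts at the dimmest well-measured probe's signal, or at the Rab9b probe's own where that was higher. With another background correction, normexp, the difference was -0.08 and no longer passed (adjusted p = 0.774). A second Rab9b probe was not well above background on any array. The call was also lost without AACO replicate 1 (1.48, adjusted p = 0.0972), AACO replicate 2 (1.47, adjusted p = 0.101) or control replicate 2 (1.63, adjusted p = 0.0509).

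Rab36, which acts in the positioning of lysosomes, gave -4.63, -4.87 and -5.44 with AACO and -6.62, -6.73 and -5.40 in controls. Control replicate 3 lay above AACO replicate 3, and the probe was above background on 3 AACO arrays and 1 control array. The difference of 1.27 ± 0.40 did not pass (limma adjusted p = 0.0893), but did without control replicate 3 (1.69, adjusted p = 0.0374). With normexp it was 0.03. The other 5 members, Rab7a, Rab7b, Rab9a, Rab12 and Rab24, lay between -0.27 and 0.17. Rab7a, the main Rab of late endosomes, differed by -0.12 ± 0.11 and Rab9a by 0.17 ± 0.11.

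**Figure D2:**
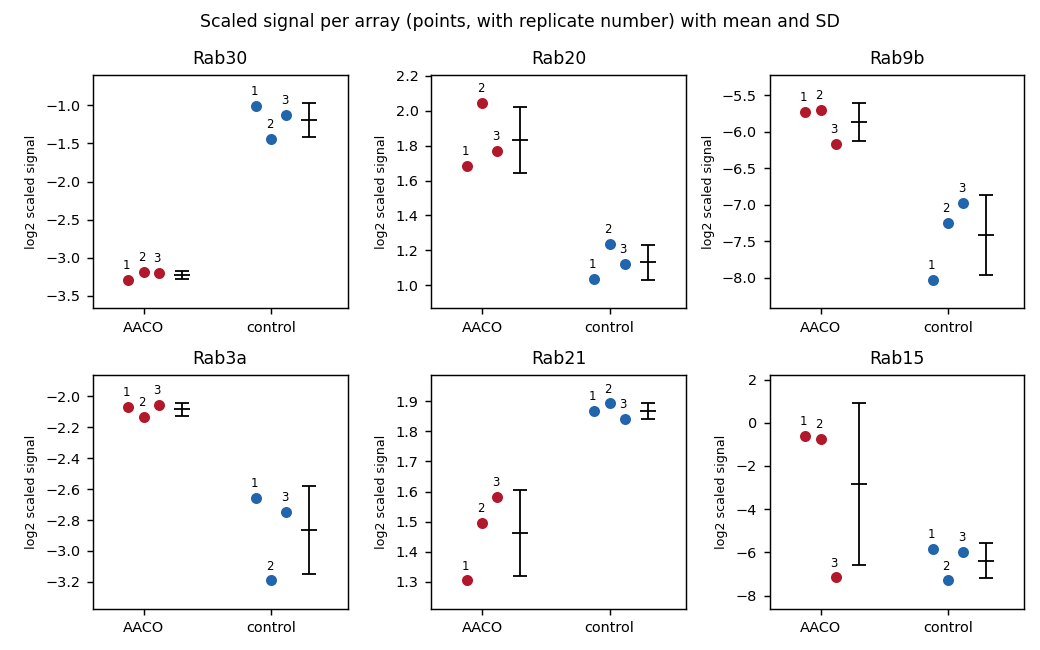
Log2 signal relative to the array's 75th percentile (vertical axis, a separate scale in each panel) of 6 Rab genes on the 3 AACO (red) and 3 control (blue) arrays, numbered by replicate, with the mean and SD in black. Rab30 was lower and Rab20, Rab9b and Rab3a were higher on every AACO array than on every control array; Rab15 was high on AACO replicates 1 and 2 only.

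Rabs of exocytosis bring secretory vesicles to the plasma membrane. Of 10 tested, 1 rose and 0 fell (all genes: 6.32% and 4.94%), with 7 higher, 3 lower and a median of 0.19. The median was 0.09 without AACO replicate 2, 0.12 without AACO replicate 1, 0.11 without control replicate 2 and 0.02 with AACO replicate 3 as the lone AACO array, and it turned to -0.03, with 4 higher and 6 lower, with the Myl7 and Sln covariate. Rab3a, the Rab of synaptic and neuroendocrine vesicles, gave -2.07, -2.13 and -2.06 with AACO and -2.66, -3.19 and -2.75 in controls at a probe at chr16:19190472-19190531 of rn4. The groups did not overlap, and the SD was 0.04 among AACO and 0.28 among control arrays. The difference was 0.78 ± 0.16 (limma adjusted p = 0.0311), or 1.72-fold higher. The call was lost with normexp (0.46, adjusted p = 0.0754) and without AACO replicate 1 (0.77, adjusted p = 0.103), AACO replicate 2 (0.80, adjusted p = 0.101), AACO replicate 3 (0.77, adjusted p = 0.0580) or control replicate 3 (0.84, adjusted p = 0.0696).

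Rab27b, which docks secretory granules and exosome-bearing compartments at the membrane, gave -3.27, -4.28 and -4.64 with AACO and -5.01, -5.32 and -5.03 in controls. The groups did not overlap, but the AACO arrays spread over more than 1 log2 unit, and the difference of 1.05 ± 0.35 did not pass (limma adjusted p = 0.0990). With normexp it was 0.24, and with scaling by spike-in controls it passed (adjusted p = 0.0452). Rab26, found on secretory granules, gave -2.57, -3.59 and -3.55 with AACO and -4.13, -3.91 and -3.86 in controls. AACO replicate 1 stood highest and no values overlapped, and the difference was 0.73 ± 0.28 (adjusted p = 0.143). Rab8a, of traffic from the Golgi to the surface and the cilium, gave 0.55, 0.46 and 0.41 with AACO and 0.18, 0.08 and 0.31 in controls. These did not overlap either, with a difference of 0.28 ± 0.10 (adjusted p = 0.131). Its relative Rab8b was lower, at -3.61, -3.38 and -3.70 with AACO against -3.30, -3.31 and -3.37, a difference of -0.24 ± 0.11 (adjusted p = 0.207) without overlap. Rab13, which acts at tight junctions, gave -2.47, -2.87 and -2.79 with AACO and -2.52, -2.44 and -2.26 in controls. AACO replicate 1 lay among the controls, and the difference was -0.30 ± 0.14 (adjusted p = 0.206). Rab3b, Rab3d, Rab10 and Rab27a lay between -0.06 and 0.26. Rab10, which with its GAP Tbc1d4 takes part in insulin-driven transport of the glucose transporter GLUT4 in fat cells, differed by 0.01 ± 0.15.

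Rabs of the early endosome receive cargo taken in at the surface. Of 8 tested, 0 rose and 0 fell at the threshold (all genes: 6.32% and 4.94%). By their brightest probes 7 of the 8 were lower with AACO, against 7918 of all 17536 genes. The median was -0.17 and the range -0.41 to 0.10, whereas without scaling between arrays all 8 were higher with a median of 0.32. The Myl7 and Sln covariate gave 4 higher and 4 lower (median -0.02), and AACO replicate 3 as the lone AACO array 3 higher and 5 lower (-0.04). Rab21, which carries integrins, was nearest to the threshold, at 1.30, 1.50 and 1.58 with AACO and 1.87, 1.89 and 1.84 in controls. The groups did not overlap, and the difference was -0.41 ± 0.11 (limma adjusted p = 0.0585). It passed in 5 alternatives, among them quantile normalization (-0.46, adjusted p = 0.0409) and the deposited series matrix (-0.46, adjusted p = 0.0415). These 2 settings were nearly alike over all genes, with 991 and 986 rising and 1004 and 1001 falling. Among the settings that left out 1 array, Rab21 passed in 0. Rab5a, Rab5b and Rab5c, the Rabs of early endosome fusion, differed by 0.10 ± 0.09, -0.12 ± 0.12 and -0.21 ± 0.12. Rab4a and Rab4b, of fast recycling, differed by -0.07 ± 0.16 and -0.22 ± 0.12, and Rab31 and Rab22a by -0.18 ± 0.13 and -0.15 ± 0.10. A second probe went the opposite way for Rab5a (-0.15) and Rab22a (0.46), and the same way for Rab5b (-0.23).

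Recycling Rabs return cargo to the surface, and of 5 tested 0 rose and 0 fell (all genes: 6.32% and 4.94%). Of these 5, 2 were higher and 3 lower. Without AACO replicate 2, and without control replicate 1, 3 were higher and 2 lower. Rab35, of recycling and actin remodelling, gave 2.34, 2.60 and 2.55 with AACO and 2.77, 2.73 and 2.76 in controls. The groups did not overlap, and the difference was -0.26 ± 0.10 (limma adjusted p = 0.152). Rab11a and Rab11b, the central Rabs of the recycling endosome, differed by -0.11 ± 0.12 and -0.06 ± 0.16, and Rab14 by 0.33 ± 0.21.

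Rab15, a Rab of receptor recycling known mainly from neural tissue, had the largest difference among the 51 and the widest spread. Its probe at chr6:99378967-99379026 of rn4 gave -0.60 and -0.76 on AACO replicates 1 and 2, -7.16 on AACO replicate 3, and -5.85, -7.30 and -5.99 on the controls. It was well above background on AACO replicates 1 and 2 and 1 control array, so the groups overlapped and AACO replicate 3 lay with the controls. The difference of 3.54 ± 1.75 did not pass (limma adjusted p = 0.226). Without AACO replicate 3 it was 5.70 (adjusted p = 0.0125), and with that replicate as the lone AACO array it was -0.78. The probe was not well above background on AACO replicate 3 and on 2 of the 3 controls, so the size of 5.70 is not exact and the sign of -0.78 carries no direction.

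The atrial light chain gene Myl7 followed the same arrays, at 4.83, 6.26 and -1.06 with AACO and -2.31, -2.91 and -1.51 in controls. The atrial gene Sln gave 1.39, 3.85 and -0.41 with AACO and -1.71, -0.42 and -0.59 in controls. Both were highest on AACO replicates 1 and 2. Of the whole atrial list 6 of 7 markers were measured, 2 higher and 4 lower, 0 called, with sums of 153 to 245 with AACO and 145 to 228 in controls, and Bmp10 was too dim to test. Of the Schwann cell and neuron list 7 of 8 were measured, all 7 higher and 1 called, and Snap25 was too dim to test. Its sums were 5.27, 5.67 and 1.91 with AACO and 1.24, 1.81 and 1.04 in controls. The Schwann cell genes S100b, at -2.21, -2.57 and -4.41 with AACO and -4.74, -4.38 and -4.91 in controls, and Sox10, at -0.38, -0.77 and -1.75 with AACO and -2.43, -2.25 and -2.78 in controls, were also highest on AACO replicates 1 and 2. With the mean of Myl7 and Sln as a covariate the difference of Rab15 was -1.16 ± 1.27. That covariate was itself highest on AACO replicates 1 and 2, and with it 0 of all 17536 genes were called. This fit therefore cannot separate the atrial genes from anything else that those 2 arrays share. The part of either cell type in the level of Rab15 was not tested.

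**Figure D3:**
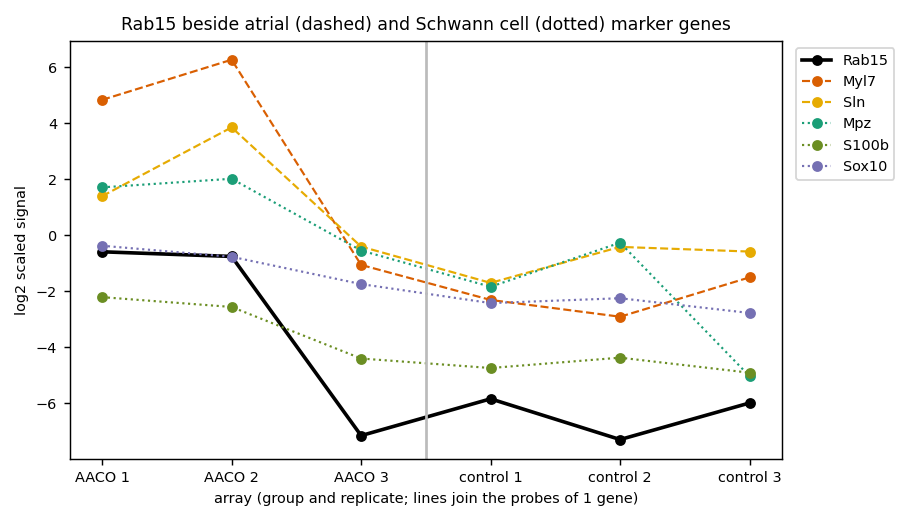
Log2 signal relative to the array's 75th percentile (vertical axis) of Rab15 (black), 2 atrial genes (dashed) and 3 Schwann cell genes (dotted) on each of the 6 arrays (horizontal axis; lines join the values of 1 gene). Rab15 stood at -0.60 and -0.76 on AACO replicates 1 and 2, where Myl7 stood at 4.83 and 6.26, and at -7.16 on AACO replicate 3, where Myl7 stood at -1.06.

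Of 5 further Rabs with roles at the cilium or elsewhere, 0 rose and 0 fell (all genes: 6.32% and 4.94%). Of these 5, 1 was higher and 4 lower, with a median of -0.19. The median was -0.05 without AACO replicate 1, -0.10 without control replicate 3 and 0.03, with 3 higher, with AACO replicate 3 as the lone AACO array. Rab23, a brake on Hedgehog signalling, gave -5.53, -5.59 and -5.23 with AACO and -5.18, -4.94 and -5.22 in controls. The values did not overlap, though AACO replicate 3 and control replicate 3 nearly met, and the difference was -0.34 ± 0.14 (limma adjusted p = 0.162). Rab44, a large Rab with a calcium-binding EF-hand, gave -5.08, -6.01 and -5.77 with AACO and -5.30, -4.89 and -5.05 in controls. AACO replicate 1 lay among the controls, and the difference was -0.54 ± 0.25 (adjusted p = 0.206). Rab28, Rab40b and Rab40c lay between -0.19 and 0.14. The Rabs of lysosome-related organelles, Rab32 and Rab7l1 (now Rab29), differed by 0.01 ± 0.18 and 0.18 ± 0.10.

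More than 1 probe passed the filter for 11 Rab genes, with 14 other probes among them. Of these 14, 10 moved the opposite way to the brightest probe, over 8 genes, and in 6 of the 10 both differences were under 0.3. The gap between probes was widest for Rab6b, at 0.63 for the brightest and -0.15 for the second, whose values did not overlap between the groups. The brightest probe of Rab22a gave -0.42, -0.44 and -0.41 with AACO and -0.29, -0.13 and -0.40 in controls, a difference of -0.15, and another, at chr3:164603658-164603717 of rn4, gave -1.03, -1.06 and -1.30 against -1.66, -1.52 and -1.60, a difference of 0.46. Neither set of values overlapped between the groups, so these 2 probes give opposite directions for Rab22a. The second probe of Rab33b differed by -0.18, against 0.41 at the brightest. Rab6a was -0.01 at its brightest probe and 0.35 and 0.28 at 2 others. Both probes moved the same way in Rab20 (0.70 and 0.71), Rab5b (-0.12 and -0.23) and Rab32 (0.01 and 0.26). Of the 4 Rab1b probes, all placed on chromosome X of rn4, 2 share a run of 54 of their 60 bases, so they are not independent, and these gave 0.14 and 0.09 while the others gave -0.19 and -0.18. Between tested probes of different Rab genes the longest shared run was 13 bases, between Rab3a and Rab3b.

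**Figure D4:**
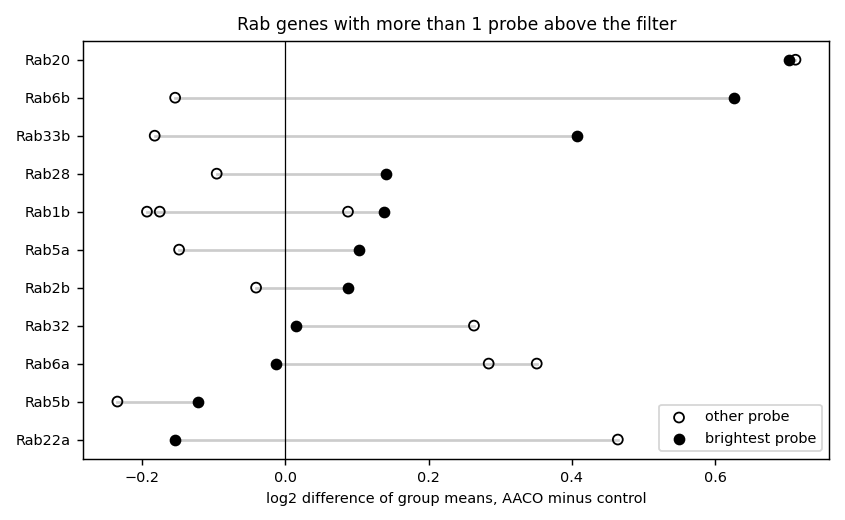
Difference of group means (log2, AACO minus control, horizontal axis) for the brightest probe (filled) and the other probes (open) of the 11 Rab genes with more than 1 probe above the filter; a grey line joins the probes of 1 gene. The probes of Rab20 lie at 0.70 and 0.71, and those of Rab22a on either side of 0 at -0.15 and 0.46.

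The proteins that lipidate, switch and read Rabs were taken from lists of 158 genes, 123 of them tested. Of these 2 rose and 5 fell, 50 were higher and 73 lower, and the median difference was -0.04. That is against the same 6.32% of all genes rising and 4.94% falling. The direction of the list depended on scaling: 62 were higher and 61 lower with spike-in scaling, and 115 higher without scaling. With the Myl7 and Sln covariate 58 were higher and 65 lower.

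Among 10 tested genes of prenylation, membrane delivery and GDIs, 1 rose and 0 fell (all genes: 6.32% and 4.94%). Chml, the second Rab escort protein, which presents Rabs for prenylation, gave -3.98, -4.30 and -4.48 with AACO and -4.87, -5.08 and -5.08 in controls. The groups did not overlap, with a difference of 0.76 ± 0.15 (limma adjusted p = 0.0321), while normexp gave 0.10 (adjusted p = 0.684). The call was lost without AACO replicate 1 (adjusted p = 0.0777), AACO replicate 2 (adjusted p = 0.102), control replicate 2 (adjusted p = 0.0755) or control replicate 3 (adjusted p = 0.0938).

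Of 28 tested GEFs of 40 listed, 0 rose and 2 fell (all genes: 6.32% and 4.94%). Rin3, a GEF of the Rab5 group, gave -5.73, -5.57 and -5.19 with AACO and -4.51, -4.62 and -4.72 in controls, a difference of -0.88 ± 0.16 (limma adjusted p = 0.0245). Rab3gap2, whose complex with Rab3gap1 loads GTP on Rab18 and is also a GAP of Rab3, gave -0.51, -0.70 and -0.52 with AACO and 0.17, 0.07 and -0.10 in controls, a difference of -0.62 ± 0.11 (adjusted p = 0.0249). Neither gene's groups overlapped, as was so for 37.4% of all genes. Rin3 was called without AACO replicate 3 only, with an adjusted p of 0.0774, 0.0951, 0.0541, 0.0556 and 0.0624 on leaving out AACO replicates 1 and 2 and control replicates 1, 2 and 3. Rab3gap2 lost its call without AACO replicate 1 (adjusted p = 0.0748), AACO replicate 2 (adjusted p = 0.0925), control replicate 1 (adjusted p = 0.0532) or control replicate 2 (adjusted p = 0.0603). With scaling by spike-in controls the adjusted p was 0.0509 for Rin3 and 0.0549 for Rab3gap2.

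Of 28 tested GAPs of 37 listed, 1 rose and 3 fell, all of the TBC-domain family that ends the GTP-bound state. Over all genes 6.32% rose and 4.94% fell. An unadjusted limma p under 0.05 was reached by 12 GAPs (42.9%), against 29.3% of all machinery genes and 30.8% of all genes. For 13 GAPs (46.4%) the groups did not overlap, 7 higher and 6 lower, against 37.4% of all genes. Tbc1d22a gave -5.28, -5.22 and -4.80 with AACO and -3.81, -3.98 and -3.97 in controls, a difference of -1.18 ± 0.15 (limma adjusted p = 0.0116). Tbc1d9 gave -3.15, -3.27 and -2.97 with AACO and -2.22, -2.34 and -2.25 in controls, a difference of -0.86 ± 0.11 (adjusted p = 0.0115). Tbc1d2, a GAP of Rab7, gave -2.11, -2.29 and -1.89 with AACO and -1.34, -1.40 and -1.28 in controls, a difference of -0.76 ± 0.12 (adjusted p = 0.0195). Tbc1d10c was higher, at 0.996, 0.67 and 0.75 against 0.20, -0.09 and -0.01, a difference of 0.77 ± 0.13 (adjusted p = 0.0218). In none of these 4 genes did the groups overlap. Without AACO replicate 2 none of the 4 passed, with an adjusted p of 0.0591 for Tbc1d22a, 0.0530 for Tbc1d9, 0.0730 for Tbc1d2 and 0.0686 for Tbc1d10c. Without AACO replicate 1 the adjusted p was 0.0503 for Tbc1d9, 0.0735 for Tbc1d2 and 0.0692 for Tbc1d10c. Without control replicate 3 it was 0.0654 for Tbc1d2 and 0.0696 for Tbc1d10c, and without control replicate 2 it was 0.0537 for Tbc1d10c.

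Of 58 tested effectors of 72 listed, 0 rose and 0 fell in limma (all genes: 6.32% and 4.94%). An unadjusted limma p under 0.05 was reached by 15 (25.9%, against 30.8% of all genes). Nearest to the threshold were Acap2, an effector of Rab35, at -0.40 ± 0.10 (adjusted p = 0.0531), and Rilp, which links Rab7 to dynein, at 0.36 ± 0.09 (adjusted p = 0.0545). Acap2 was lower on every AACO array, at -2.73, -2.57 and -2.56 against -2.31, -2.19 and -2.16. Rilp was higher on every AACO array, at 1.86, 1.79 and 1.78 against 1.52, 1.39 and 1.45.

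**Figure D5:**
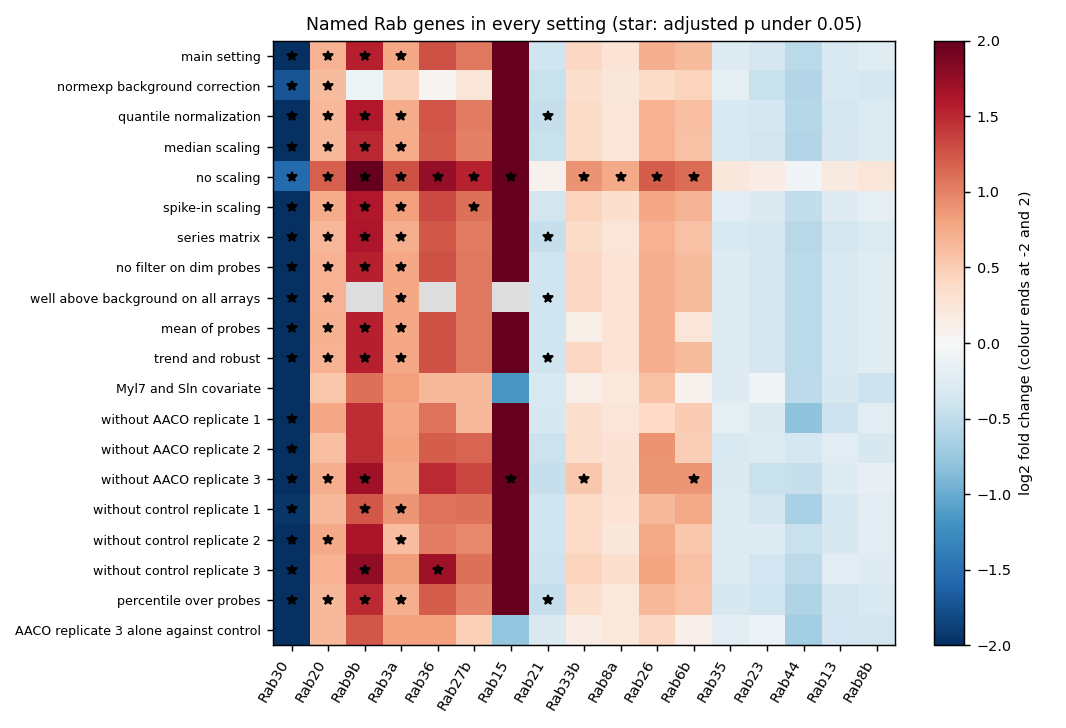
Log2 fold change (colour, cut at -2 and 2) of the 17 Rab genes given by array in each setting (vertical axis); a star marks an adjusted p under 0.05, and grey a gene that setting did not test. Rab30 kept its star in 17 of 19 alternatives, Rab20 in 13 of 19, Rab9b in 12 of 18 and Rab3a in 12 of 19.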

How the data were processed

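Whole heart RNA was measured in 6 samples on single-colour Cy3 Agilent arrays, from 0.2 ug RNA each, per the labels' protocols. The authors' deposited values are the processed signal intensity of each spot, read with Agilent Feature Extraction 10.7.1.1 per the submitters' processing notes, background-corrected but unscaled. The authors also deposited a series matrix of log2 values, with an array median of 6.79, and how it was scaled is not given in the sources used here. From the intensities, log2 minus the array's 75th percentile was computed, outlier spots were dropped and spots of 1 probe averaged. Probes well above background on at least 3 of 6 arrays were kept, and groups were compared in R 4.3.3 with limma 3.58.1 (lmFit, eBayes, two-sided, Benjamini-Hochberg over 17536 genes), after tests on simulated data. Saturation was found on 0 spots; the number of arrays limits the precision.

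Rab genes with an adjusted p under 0.05 or a difference of at least 1, and the 10 next by adjusted p, are given by array, and machinery genes where called, or else the 2 nearest. Members and lists were chosen with earlier results of these data known. Probe names matched RefSeq by accession for 66 of 72 probes. Probe positions are those of the array files (rn4), and exon or UTR was not analysed here. Alternatives covered background correction, scaling, filter, probe choice, variance moderation, a Myl7 and Sln covariate and each array left out. A percentile over probes, and AACO replicate 3 alone, were added after seeing the data.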

Additional observations from a re-analysis of the deposited data

How the results depend on the processing

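Against 3 Rab genes that rose, normexp gave 1, no scaling 13, and both the Myl7 and Sln covariate and AACO replicate 3 alone gave 0; leaving out 1 array gave 0 (without AACO replicate 1 or 2) to 5 (without AACO replicate 3). Against 1 that fell, quantile normalization, the series matrix, probes above background on all arrays, trend and robust moderation and a percentile over probes each gave 2, no filter gave 3, the covariate and AACO replicate 3 alone gave 0, and leaving out 1 array gave 1 each time. The 2 added by the unfiltered fit were Rab3c and Rab39a, which were not above background on any array. In the machinery lists 2 genes rose: no scaling gave 31, spike-in scaling, probes above background on all arrays and the mean of probes each 4, trend and robust moderation 6, the covariate and AACO replicate 3 alone 0, and leaving out 1 array 0 to 2. Against 5 that fell, normexp gave 9, quantile normalization, the series matrix, trend and robust moderation and a percentile over probes each 8, spike-in scaling 3, no scaling, the covariate and AACO replicate 3 alone 0, and leaving out 1 array 0 (without AACO replicate 2) to 8 (without AACO replicate 3). Over all genes 1975 differed, 5725 without scaling and 0 with the covariate or AACO replicate 3 alone; leaving out 1 array gave 256 (without AACO replicate 2) to 2162 (without AACO replicate 3). Rises made up 56.1% of these calls, 33.7% with normexp, 35.6% without a filter, 45.7% with a percentile over probes, 69.2% with spike-in scaling and 95.9% without scaling.

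Directions turned for Rab9b with normexp (-0.079). For Rab15 the sign turned with the covariate (-1.16, smaller than its SE) and with AACO replicate 3 alone (-0.78). Outside AACO replicates 1 and 2 the Rab15 probe was mostly not well above background, so no direction is read from either. Without scaling, directions turned for Rab21 (0.081), Rab35 (0.23), Rab23 (0.15), Rab13 (0.19), Rab8b (0.25) and Acap2 (0.086). Without scaling the median of all genes moved to 0.52. Where not said, the cause was not tested. No paired analysis was possible because the numbers in the titles differ between the groups, and slide as a block could not be fitted because no slide held both groups. Signal over background limits Rab9b, Rab15, Rab36 and Rab33a, which were above background on at most 1 control array.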
